A study of Mus musculus with 12 samples.

Results

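The mouse mitochondrial chromosome carries genes for 13 proteins, 2 ribosomal RNAs and a set of transfer RNAs. Mitochondrially encoded genes were taken as all rows of the deposited count table whose position lay on chromosome MT. There were 15 such genes among 33539: 13 protein-coding genes and 2 rRNA genes. Transfer RNA genes were not analysed here. Polyadenylated RNA of mouse skin had been sequenced in 12 libraries. The 4 Tcn2-/- IMQ libraries came from imiquimod-treated, Tcn2-deficient skin, the 5 IMQ libraries from imiquimod-treated skin with no Tcn2 deficiency given, and the 3 control libraries from wild-type skin with no treatment given. Imiquimod is a Toll-like receptor agonist that causes psoriasis-like inflammation in mouse skin, and Tcn2 encodes transcobalamin, the plasma carrier that delivers vitamin B12 to cells. Age, strain and how the Tcn2 allele was made are not given in the labels used here. The labels do not say that replicates were separate animals, so p-values measure the spread between these libraries, which may be partly technical. Skin is the tissue label, although each title also has the word muscle.

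Mitochondrial DNA is transcribed from both strands as long precursors. Cleavage at the tRNAs, which lie between most of the other genes, releases the mRNAs and rRNAs. Most mature mRNAs receive a short poly(A) tail, and in several of them this tail completes a stop codon that the DNA only begins. The proteins are core subunits of respiratory complexes I, III and IV and of ATP synthase (complex V), and every other subunit is encoded in the nucleus. Vitamin B12 has a direct mitochondrial use as cofactor of methylmalonyl-CoA mutase. Oligo(dT) capture was used for these libraries, so each count depends on the tail of the transcript as well as on its amount.

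3 features of the sequences bear on how the rows were counted, and they are shown here. The first is the stop codon. The last 30 bases of mt-Co1 (subunit 1 of cytochrome c oxidase, complex IV; chrMT:5328-6872, plus strand) hold a whole stop codon. The last 30 bases of mt-Co3 (subunit 3 of the same complex; chrMT:8607-9390) and of mt-Cytb (cytochrome b of complex III; chrMT:14145-15288) end in its first letter only. Capitals mark the encoded stop letters.
mt-Co1 end: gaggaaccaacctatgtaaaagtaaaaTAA
mt-Co3 end: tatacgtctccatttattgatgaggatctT
mt-Cytb end: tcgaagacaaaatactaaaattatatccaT

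The second feature is overlap. The last 43 bases of mt-Atp8 (chrMT:7766-7969) are also the first 43 bases of mt-Atp6 (chrMT:7927-8607), and both genes encode subunits of ATP synthase. Capitals mark the shared bases in the last 90 bases of mt-Atp8 and the first 90 bases of mt-Atp6.
mt-Atp8 end: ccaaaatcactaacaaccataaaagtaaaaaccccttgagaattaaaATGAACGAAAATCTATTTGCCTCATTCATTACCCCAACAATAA
mt-Atp6 start: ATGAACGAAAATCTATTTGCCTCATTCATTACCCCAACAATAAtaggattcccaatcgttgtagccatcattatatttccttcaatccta

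The third feature is a block of mitochondrial sequence on nuclear chromosome 1, where 7 rows are near-identical copies of mitochondrial genes or of parts of them. Gm28438 (chr1:24651856-24652200, minus strand) aligned with mt-Nd3 (a complex I subunit; chrMT:9459-9806, plus strand) over 345 bases with 1 difference, T3C, counted from 1 at the first base of mt-Nd3. The first 90 bases of each row show it in capitals.
mt-Nd3 start: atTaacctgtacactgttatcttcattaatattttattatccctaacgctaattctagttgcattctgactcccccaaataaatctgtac
Gm28438 start: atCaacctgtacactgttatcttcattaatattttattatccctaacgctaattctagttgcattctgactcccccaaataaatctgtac

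The letters were read from the GENCODE M21 transcripts (GRCm38) by gene name. The positions are those of the deposited table (GRCm39), and for the mitochondrial genes they are the same in both. The copies of mt-Co2, mt-Atp6, mt-Co3, mt-Nd4l and mt-Nd4 were 100% identical over the aligned bases. The copy of mt-Co1 differed at 1 base, A1066T. It aligned only with bases 1063 to 1545 of mt-Co1, and the copy of mt-Nd4 only with bases 1 to 876 of the 1378 of mt-Nd4.

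Library totals ranged from 16182324 to 18503487 counts. Levels below are CPM, counts scaled to library size with TMM factors. Tcn2, the targeted gene, was at 5.58, 1.90, 5.43 and 4.14 CPM in the Tcn2-/- IMQ libraries, at 66.9 to 141 CPM in the IMQ libraries and at 19.9, 75.8 and 85.8 CPM in the controls. All 10 keratinocyte markers were detected in every library, with sums of 11704 to 49515 CPM in Tcn2-/- IMQ, 21424 to 35273 CPM in IMQ and 8986 to 10542 CPM in control skin. Skeletal muscle markers summed to 39264, 21335, 9508 and 16682 CPM in Tcn2-/- IMQ replicates 1 to 4, to 3233 to 8231 CPM in IMQ and to 14577 to 15180 CPM in control skin. Xist and Ddx3y counts read control replicates 2 and 3 and IMQ replicate 1 as female and the other 9 libraries as male. Control replicate 1 is thus the only male control.

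The mitochondrial genes took 6.06%, 8.08%, 3.23% and 4.23% of all counts in the Tcn2-/- IMQ libraries. They took 3.94%, 2.78%, 4.30%, 4.41% and 3.14% in the IMQ libraries and 10.3%, 3.18% and 5.53% in the controls. The ranges of the 3 groups overlap. The highest values stand in control replicate 1 and Tcn2-/- IMQ replicate 2. The mean share was 5.40% ± 2.14 (SD, n = 4) in Tcn2-/- IMQ, 3.71% ± 0.719 (SD, n = 5) in IMQ and 6.34% ± 3.63 (SD, n = 3) in control skin. Without control replicate 1 the control mean was 4.36%, and without Tcn2-/- IMQ replicate 2 the mean of that group was 4.51%. In bulk skin, fewer cells of a type and less RNA per cell cannot be told apart.

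**Figure D1:**
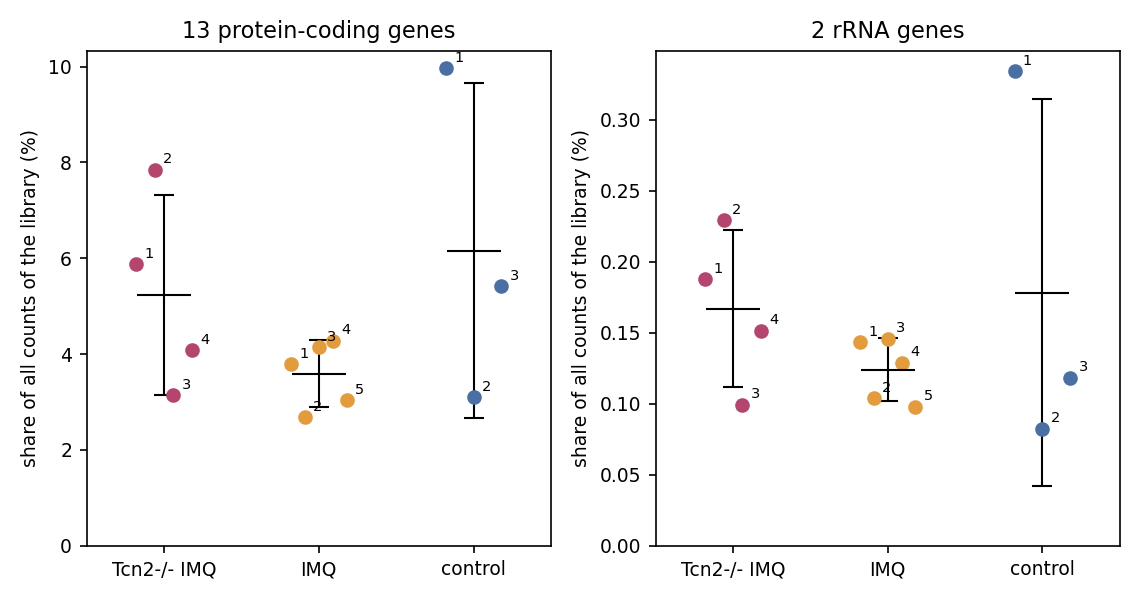
Share of all counts of a library (%) held by the 13 protein-coding genes (left) and the 2 rRNA genes (right) of the mitochondrial chromosome. Points are libraries with their replicate number, and black lines are the group mean ± SD. Control replicate 1 lies highest in both panels, and the ranges of the groups overlap.

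Nearly all mitochondrial counts came from the mRNAs. RNA was captured with oligo(dT), so these counts need not follow the amounts of rRNA and mRNA. The 2 rRNA genes held 0.188%, 0.229%, 0.0994% and 0.151% of all counts in the Tcn2-/- IMQ libraries, 0.0979% to 0.146% in the IMQ libraries and 0.334%, 0.0825% and 0.118% in the controls. The same control and the same Tcn2-/- IMQ library were highest for mRNAs and for rRNAs. Control replicate 1 was the highest of the 12 libraries for 12 of the 15 genes. Control replicate 1 and Tcn2-/- IMQ replicate 2 were the highest pair for 10 of them. This pair also had the fewest genes with a count, at 22340 and 21417, against 23256 or more in every other library.

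Macrophage and fibroblast markers were low in control replicate 1 and Tcn2-/- IMQ replicate 2. Skeletal muscle markers, at 14577 and 21335 CPM, and brown adipocyte markers, at 509 and 617 CPM in the same order, were not. The 8 macrophage markers summed to 330 CPM in Tcn2-/- IMQ replicate 2 and 116 CPM in control replicate 1, against 1283 CPM or more in every other library. The 7 fibroblast markers summed to 8119 CPM in Tcn2-/- IMQ replicate 2 and 1652 CPM in control replicate 1, against 8697 CPM or more elsewhere. For fibroblast markers only control replicate 1 stood clear of the other 11 libraries. The 7 adipocyte markers were also lowest in this pair, at 408 CPM in Tcn2-/- IMQ replicate 2 and 478 CPM in control replicate 1. Tcn2-/- IMQ replicate 4 was next, at 479 CPM. Erythrocyte markers, at 42.3 and 50.5 CPM in the same order, were as low in Tcn2-/- IMQ replicates 3 and 4, at 43.9 and 50.2 CPM. The part of cell makeup in the mitochondrial share was not tested. Among the libraries read as male, the share was 3.23% to 8.08% in Tcn2-/- IMQ, 2.78% to 4.41% in IMQ and 10.3% in the single control. Among those read as female it was 3.94% in the single IMQ library, against 3.18% and 5.53% in the controls.

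All 15 genes passed the filter on low counts. For Tcn2-/- IMQ against IMQ, edgeR's quasi-likelihood test called 0 of 15 at an adjusted p below 0.05, where 0.0276% of all genes tested were called. At an unadjusted p below 0.05 there were 0 of 15, against 11.8% of all genes. DESeq2 called 0 of 15, against 2.76% of all genes, and limma voom called 0 of 15, against 0.154%. At an unadjusted p below 0.05 there were 0 by DESeq2, against 8.67% of all genes, and 0 by limma voom, against 12.3%. 13 of the 15 log2 changes were above 0, against 50.8% of all genes, and their median was 0.46, against 0.01 over all genes tested. The groups overlapped for all 15 genes, where 1.71% of all genes tested were higher and 3.18% lower without overlap. The median was 0.17 without Tcn2-/- IMQ replicate 2 and 0.03 with the skeletal muscle score as a covariate. That score, the mean log2 CPM of the markers, was 7.55 to 9.63 in Tcn2-/- IMQ and 6.03 to 7.40 in IMQ. The groups do not overlap in it, so score and group cannot be fully told apart.

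Complex I is the entry point of electrons from NADH, and 7 of its subunits are mitochondrial. mt-Nd6, the 1 protein-coding gene among the 13 read from the minus strand (chrMT:13552-14070), was at 1826, 3688, 852 and 1266 CPM in the Tcn2-/- IMQ libraries, against 1087, 765, 1300.4, 1605 and 964 CPM in the IMQ libraries. Replicate 2 of Tcn2-/- IMQ was above all other libraries, and replicates 3 and 4 lay within the IMQ range. The log2 change was 0.74 ± 0.43 (SE), the highest of the 15 genes in this comparison, and the adjusted p was 0.525 (edgeR).

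mt-Cytb is the single mitochondrial subunit of complex III, which passes electrons to cytochrome c. It was at 9802, 13952, 5223 and 6610 CPM in the Tcn2-/- IMQ libraries, against 5747, 4187, 6975, 6709 and 5084 CPM in the IMQ libraries. Replicates 1 and 2 of Tcn2-/- IMQ lay above every IMQ library and replicates 3 and 4 lay within the IMQ range. In edgeR's test this was 0.63 ± 0.42 (SE) on the log2 scale, with an adjusted p of 0.578.

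mt-Co1 encodes the catalytic core of cytochrome c oxidase and had the most counts of all mitochondrial genes. It was at 27360, 29013, 16195 and 20744 CPM in the Tcn2-/- IMQ libraries, against 17021, 11533, 18392, 17854 and 13371 CPM in the IMQ libraries. Replicate 3 of Tcn2-/- IMQ was the member of its group inside the IMQ range. The log2 change was 0.58 ± 0.41 (SE) with an adjusted p of 0.601 (edgeR).

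**Figure D2:**
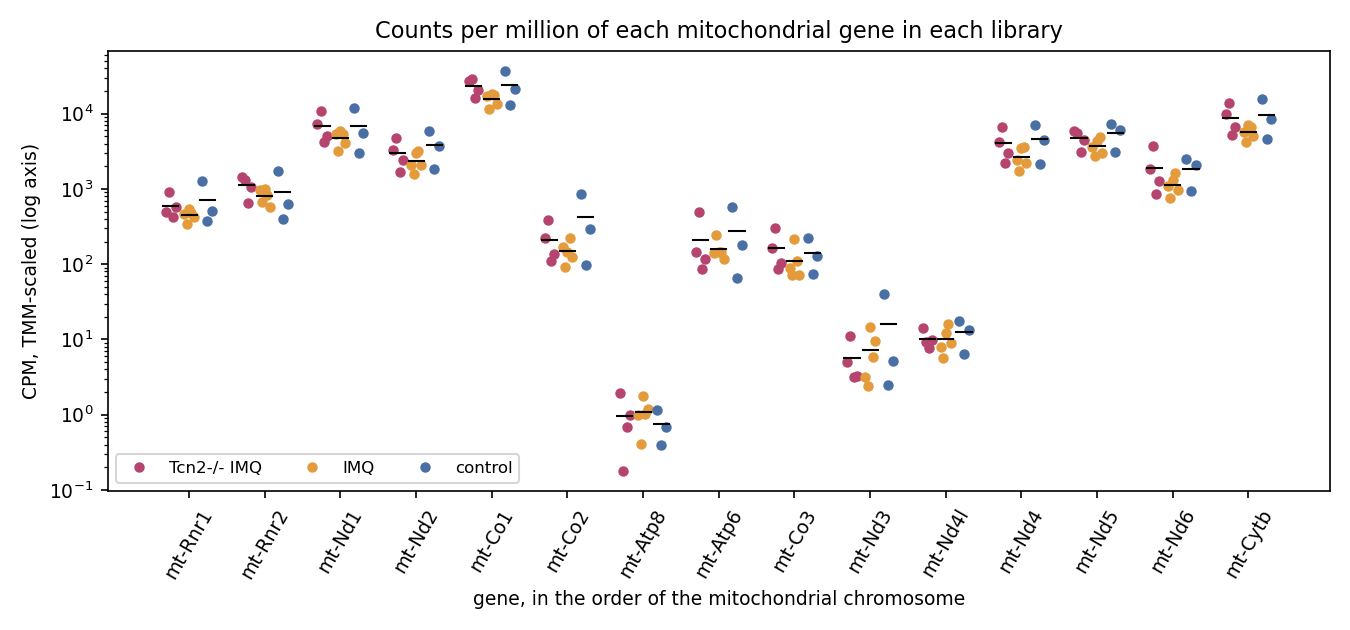
CPM with TMM factors (log axis) of the 15 mitochondrial genes in every library, in the order of the chromosome. Points are libraries, and black lines are group means. mt-Atp8, mt-Nd3 and mt-Nd4l lie far below the other genes, and the groups overlap for every gene.

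For IMQ against control, imiquimod-treated skin was set against wild-type skin. 0 of 15 genes were called by edgeR at an adjusted p below 0.05, where 1.23% of all genes tested were called. DESeq2 called 0 of 15, against 4.91% of all genes, and limma voom 0 of 15, against 16.7%. At an unadjusted p below 0.05, edgeR gave 1 of 15 genes, against 15.6% of all genes. DESeq2 gave 1, against 11.3%, and limma voom gave 1, against 32%. All 15 genes overlapped between the groups, where 6.79% of all genes were higher and 7.4% lower without overlap. 14 of the 15 log2 changes were below 0, against 50.4% of all genes, with a median of −0.67, against 0.00 over all genes. Without control replicate 1, 7 of 15 were below 0, against 47.3% of all genes in that fit, and the median was 0.017. Without control replicate 2, 6 of 15 had an unadjusted p below 0.05, against 11.9% of all genes in that fit. There 0 were called, against 0.0799% of all genes, and the median was −0.98. Skeletal muscle markers also moved in IMQ against control: 18 of 19 lay below 0 with a median of −1.40, 0 were called, and 14 had an unadjusted p below 0.05. With the skeletal muscle score as a covariate the median of the 15 mitochondrial genes was −0.22. The score was 6.03 to 7.40 in IMQ and 8.06 to 8.37 in control skin, so here too score and group cannot be fully told apart.

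The gene with the unadjusted p below 0.05 in edgeR was mt-Co2 (chrMT:7013-7696), the subunit of complex IV that receives electrons from cytochrome c. It was at 168, 91.0, 143, 225 and 125 CPM in the IMQ libraries, against 866, 97.0 and 291 CPM in the controls. The groups overlap through control replicate 2, and control replicate 1 stands alone at the top. The log2 change was −1.48 ± 0.58 (SE), with an unadjusted p of 0.0254 and an adjusted p of 0.247 (edgeR). Without control replicate 1 it was −0.37 with an adjusted p of 0.823.

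The next most negative changes were in mt-Nd3, mt-Atp6 and mt-Nd4. In edgeR's test mt-Nd3 had a log2 change of −1.16 ± 0.83 (SE; adjusted p = 0.531), mt-Atp6 of −0.81 ± 0.65 (adjusted p = 0.580) and mt-Nd4 of −0.77 ± 0.45 (adjusted p = 0.435). Without control replicate 1 these values were 0.91, 0.36 and −0.31. Among the others, mt-Cytb had a log2 change of −0.75 ± 0.45 (SE), mt-Co1 of −0.61 ± 0.44 and mt-Nd6 of −0.68 ± 0.46. The 12S rRNA of the small mitochondrial ribosome subunit, mt-Rnr1, changed by −0.67 ± 0.37 and the 16S rRNA of the large subunit, mt-Rnr2, by −0.18 ± 0.43 on the log2 scale. The adjusted p of these 5 genes lay between 0.405 and 0.868 (edgeR). mt-Atp8 alone had a value above 0, at 0.53 ± 0.67, and it rested on 7 to 29 counts per library of these groups.

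For Tcn2-/- IMQ against control, edgeR called 0 of 15 genes at an adjusted p below 0.05, where 1.31% of all genes tested were called. DESeq2 called 0 of 15, against 4.72% of all genes, and limma voom 0 of 15, against 16.2%. At an unadjusted p below 0.05 there were 0 genes by edgeR, against 12.8% of all genes, 0 by DESeq2, against 9.67%, and 1 by limma voom, against 31.6%. All 15 genes overlapped between the groups, where 4.67% of all genes were higher and 5.91% lower without overlap. 10 of the 15 log2 changes were below 0, against 49% of all genes, with a median of −0.18, against 0.01 over all genes. Without control replicate 1 all 15 were above 0, against 53.2% of all genes in that fit, and the median was 0.44. In edgeR's test the most negative value was that of mt-Nd3, −1.51 ± 0.88 (SE; adjusted p = 0.534), followed by mt-Co2 at −0.97 ± 0.61 (adjusted p = 0.577). Without control replicate 1 these values were 0.56 and 0.13. This comparison and IMQ against control share the 3 controls, so their values are not independent.

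**Figure D3:**
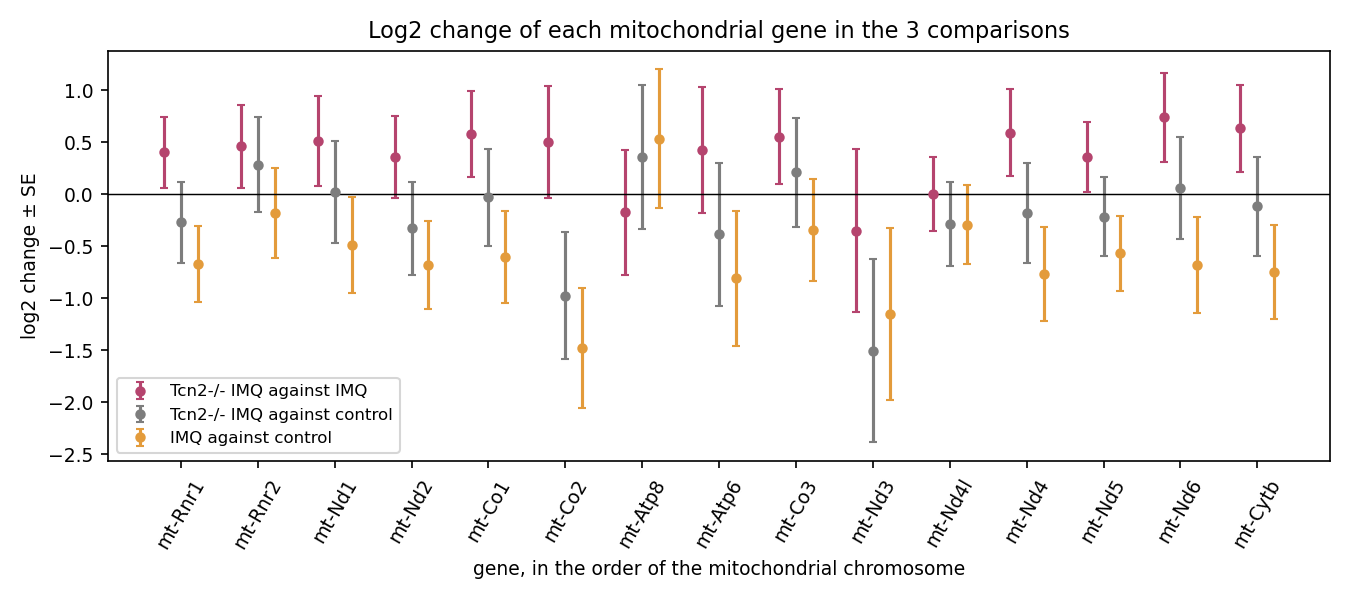
Log2 change ± SE (edgeR) of the 15 mitochondrial genes in the 3 comparisons, in the order of the chromosome. 13 of 15 values lie above 0 for Tcn2-/- IMQ against IMQ and 14 of 15 below 0 for IMQ against control, and no gene was called in any comparison.

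Levels within the chromosome were compared per kilobase of each gene, as a percentage of the sum over the 13 mRNAs in the same library. mt-Co1 held 35.1% ± 2.90 (SD over 12 libraries), mt-Cytb 17.6% ± 0.854 and mt-Nd1 16.3% ± 1.54. mt-Nd6, mt-Nd2, mt-Nd4 and mt-Nd5, all complex I subunits, held 7.76%, 7.49%, 6.76% and 6.71%, with SDs of 1.41, 0.798, 0.660 and 0.907. The other 6 genes lay far lower. mt-Co2 held 0.820%, mt-Atp6 0.756% and mt-Co3 0.449%, while mt-Nd4l held 0.0993%, mt-Nd3 0.0590% and mt-Atp8 0.0134%.

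The low genes include all those with the most sequence in nuclear transcripts. Of the 100-base windows of mt-Co2, 99.5% occur letter for letter in a nuclear transcript of GENCODE M21. The same share was 99.5% for mt-Atp6, 99.9% for mt-Co3, 97.6% for mt-Nd3 and 98.5% for mt-Nd4l. It was 60.8% for mt-Nd4, 30.8% for mt-Co1, 3.19% for mt-Nd2 and 0% for mt-Nd1, mt-Nd5, mt-Nd6 and mt-Cytb. mt-Atp8, the lowest gene, has 0% too, and it is the shortest, at 204 bases, with 43 of them also in mt-Atp6. Only annotated transcripts were searched, so 0% does not show that mt-Atp8 has no nuclear copy. On chromosome 1 the copy of its neighbour mt-Atp6 ends at 24653732 and that of mt-Co2 begins at 24653966. The stretch between them was not examined. How the authors' counting treated reads that match both places is not given in the sources used here, and its part in these levels was not tested. A level per length of these 6 genes is therefore uncertain.

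**Figure D4:**
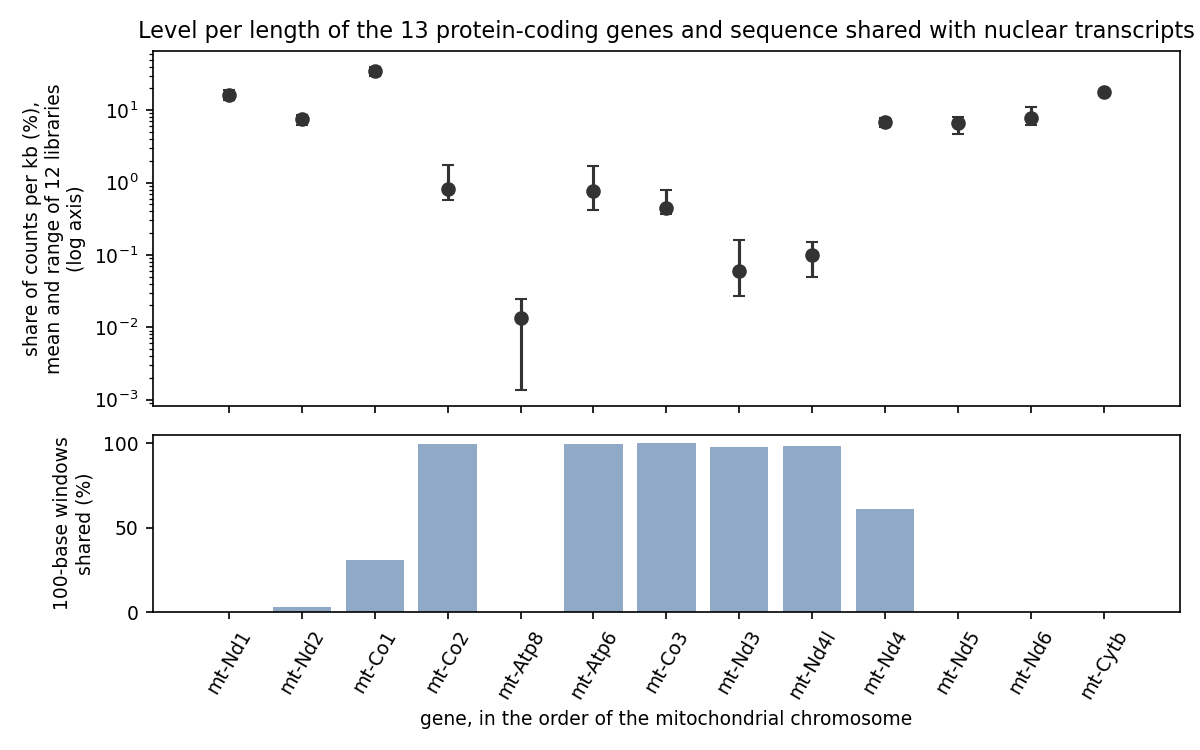
Top, level per length of the 13 mitochondrial mRNAs as a share of their summed counts per kilobase (%, log axis), mean and range of 12 libraries. Bottom, share of 100-base windows that occur in a nuclear transcript (%). The 5 genes with 97.6% or more of their windows shared lie at or below 0.820%.

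The rows of the chromosome 1 copies held a large part of the summed counts for mt-Co2, mt-Atp6, mt-Co3, mt-Nd3 and mt-Nd4l. mt-Nd3 and Gm28438 show it most clearly. mt-Nd3 had 85, 184, 51 and 56 counts in the Tcn2-/- IMQ libraries, against 55, 41, 242, 97 and 160 in the IMQ libraries and 731, 44 and 90 in the controls. Gm28438 had 445, 636, 145 and 283 counts in the Tcn2-/- IMQ libraries, against 276, 231, 74, 199 and 67 in the IMQ libraries and 875, 293 and 230 in the controls. In IMQ replicates 3 and 5, mt-Nd3 was high and the copy low, at 23.4% and 29.5% of the sum. In the other 10 libraries the copy held 54.5% to 86.9% of the sum.

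Relative to mt-Cytb, which has no shared window, the sum of mt-Nd3 and its copy varied less than either row. The coefficient of variation over 12 libraries was 72.2% for mt-Nd3, 41.7% for Gm28438 and 28.3% for their sum. For mt-Atp6 it was 49.3%, for its copy Gm10925 25.9% and for their sum 32.3%. For mt-Co2 it was 35.6%, for its copy Gm28661 13.8% and for the sum 22.7%. For mt-Co3 the values were 26.7%, 17.8% and 22.8%. The genes of high level per length varied by 9.32% (mt-Nd4) to 16.5% (mt-Nd6) on the same scale. For mt-Nd3, Tcn2-/- IMQ against IMQ came to −0.35 ± 0.78 (SE) on the log2 scale in edgeR's test (adjusted p = 0.882) from its own row and 0.71 (adjusted p = 0.592) with the copy's counts added.

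**Figure D5:**
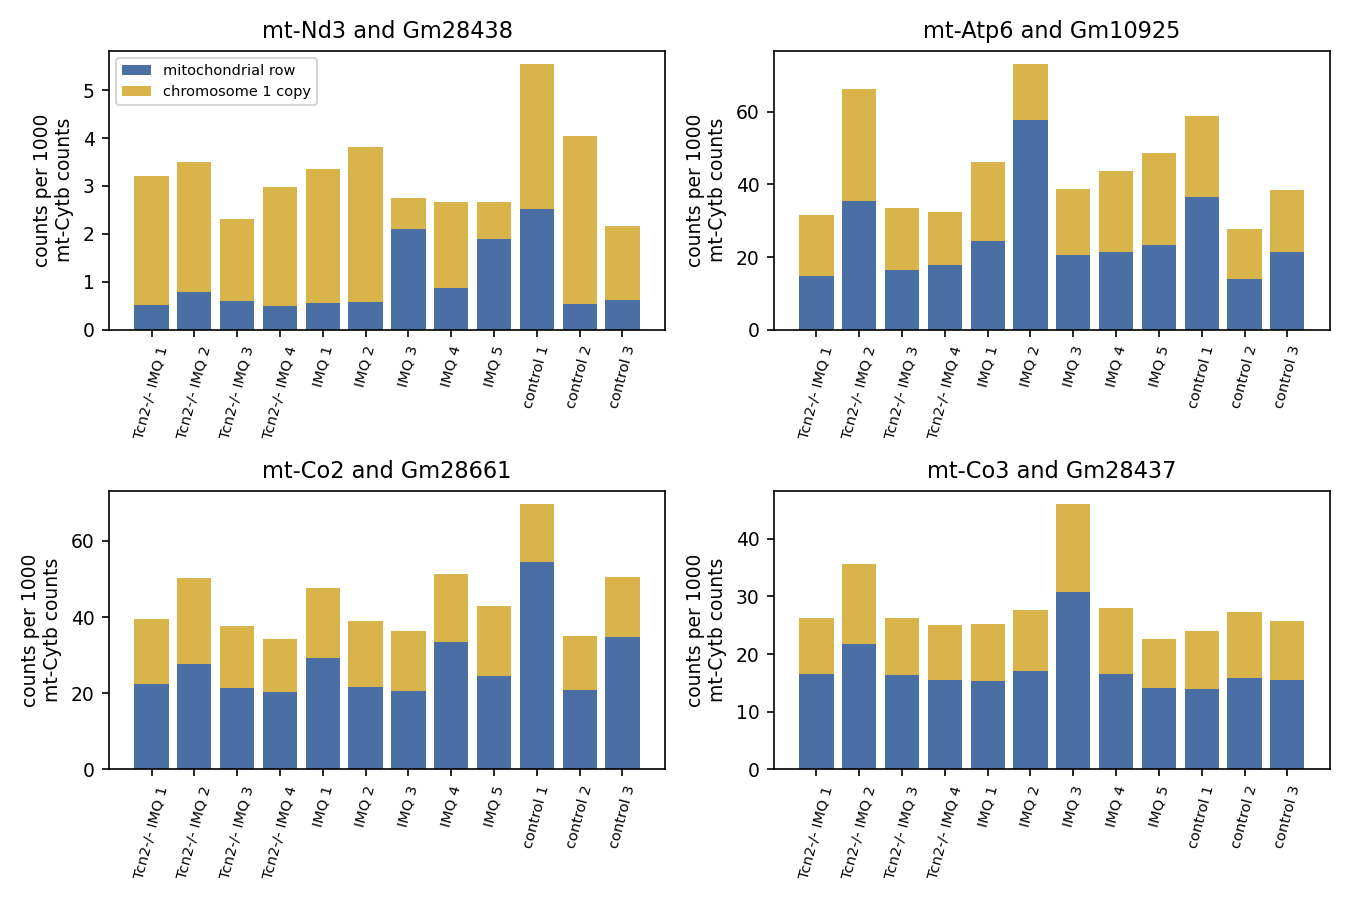
Counts per 1000 mt-Cytb counts in each library for 4 mitochondrial genes (blue) and their near-identical chromosome 1 copies (yellow), stacked. In IMQ replicates 3 and 5 the mt-Nd3 row exceeds its copy, and in the other 10 libraries the copy exceeds it.

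2 ratios within the chromosome were tested by exact permutation of libraries, 2-sided, in 6 tests. With oligo(dT) capture, both ratios depend on the tails of the transcripts as well as on their amounts. The first set mt-Rnr2 against the mRNAs, since rRNA and mRNA of the plus strand begin on shared precursors. mt-Rnr2 had 2.38, 1.73, 1.93 and 2.39 counts per 100 mRNA counts in the Tcn2-/- IMQ libraries, against 2.57, 2.55, 2.26, 1.92 and 1.85 in the IMQ libraries and 1.94, 1.36 and 1.20 in the controls. Control replicates 2 and 3 lay below all other libraries. Control replicate 1, with the highest mitochondrial share, lay among the treated ones. The means were 2.11 ± 0.329 (SD, n = 4) in Tcn2-/- IMQ, 2.23 ± 0.340 (SD, n = 5) in IMQ and 1.5 ± 0.388 (SD, n = 3) in control skin.

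No difference in mt-Rnr2 had an adjusted p below 0.05. The exact permutation p was 0.571 for Tcn2-/- IMQ against IMQ, 0.171 for Tcn2-/- IMQ against control and 0.107 for IMQ against control, or 0.857, 0.514 and 0.514 after adjustment over the 6 tests. The smallest p these sizes allow is 0.0159, 0.0571 and 0.0357 in the same order, so the second comparison could not reach 0.05. After adjustment over the 6 tests, IMQ against control could not reach it either, and for both comparisons with control the test cannot show a difference at that threshold. Tcn2-/- IMQ against IMQ could reach 0.05 after adjustment only if both ratios had the smallest p. The CPM of mt-Rnr2 gave log2 changes of 0.46 ± 0.40 (SE; adjusted p = 0.673) for Tcn2-/- IMQ against IMQ and 0.28 ± 0.46 (adjusted p = 0.865) for Tcn2-/- IMQ against control in edgeR's test.

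The second ratio set mt-Nd6, from the other strand, against the 12 other mRNAs. mt-Nd6 had 31.2, 51.3, 25.9 and 29.6 counts per 1000 in the Tcn2-/- IMQ libraries, against 29.6, 30.1, 30.6, 38.1 and 32.0 in the IMQ libraries and 28.9, 33.0 and 41.3 in the controls. Tcn2-/- IMQ replicate 2 was the highest and replicate 3 of that group the lowest of the 12. The means were 34.5 ± 11.4 (SD, n = 4) in Tcn2-/- IMQ, 32.1 ± 3.49 (SD, n = 5) in IMQ and 34.4 ± 6.33 (SD, n = 3) in control skin. The exact permutation p was 0.778 for Tcn2-/- IMQ against IMQ, 1 for Tcn2-/- IMQ against control and 0.464 for IMQ against control, or 0.933, 1 and 0.857 adjusted. The limits from the smallest possible p given for mt-Rnr2 hold here too. Whether counting used strand is not given in the sources used here, so reads of mt-Nd6 and of opposite-strand precursors cannot be told apart.

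The mitochondrial mRNA counts were also split by respiratory complex. The 3 complex IV genes held 45.4% ± 4.19 of the mRNA counts in Tcn2-/- IMQ (SD, n = 4), 43.7% ± 1.60 in IMQ (SD, n = 5) and 43.3% ± 2.19 in control skin (SD, n = 3). The 7 complex I genes held 38.0% ± 2.52 in Tcn2-/- IMQ, 40.1% ± 1.79 in IMQ and 39.6% ± 2.25 in control skin. mt-Cytb, for complex III, held 16.3% ± 1.53, 15.8% ± 0.476 and 16.6% ± 0.997 in the same order. These differences lay within 1 to 2 SD and were not tested. The split carries the uncertainty from shared sequence given above. Nearly all windows of mt-Co2 and mt-Co3 of complex IV and of mt-Nd3 and mt-Nd4l of complex I are shared. Those of mt-Co1 (30.8%) and mt-Nd4 (60.8%) are shared in part. mt-Co1, mt-Cytb, mt-Nd1, mt-Nd5, mt-Nd4 and mt-Nd2 together made up 93.5% to 96.6% of the mRNA counts in every library.

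The nuclear partners of these genes were read from the same fit. Of 79 nuclear subunits of the respiratory complexes, 0 were called in any of the 3 comparisons (edgeR). Of all genes tested, 0.0276% were called in Tcn2-/- IMQ against IMQ, 1.23% in IMQ against control and 1.31% in Tcn2-/- IMQ against control. In Tcn2-/- IMQ against IMQ, 77 of 79 changes were above 0, against 50.8% of all genes, with a median of 0.39, and 22 had an unadjusted p below 0.05, against 11.8% of all genes. By CPM, their summed level was highest in Tcn2-/- IMQ replicate 2 and control replicate 1. It was 8180.1 to 12219.7 in Tcn2-/- IMQ, 6817 to 8635 in IMQ and 7223 to 11072 in control skin, and the groups overlap. The 2 with the smallest p in that comparison were Cox6a2, the striated-muscle form of a complex IV subunit (log2 change 1.45 ± 0.37 SE, adjusted p = 0.163), and Ndufb3 of complex I (0.79 ± 0.23, adjusted p = 0.221). Of the 19 skeletal muscle markers tested, 19 lay above 0 in the same comparison, against 50.8% of all genes, with a median of 1.63. 0 were called, against 0.0276% of all genes, and 17 had an unadjusted p below 0.05, against 11.8%. The part of muscle in the nuclear values was not tested.

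For IMQ against control, 66 of the 79 nuclear subunits were below 0, against 50.4% of all genes, with a median of −0.16. An unadjusted p below 0.05 was found for 2 of them, a smaller share than the 15.6% of all genes. Ndufa4, a cytochrome c oxidase subunit, had the smallest p, with 0.87 ± 0.21 (SE) on the log2 scale in edgeR's test (adjusted p = 0.0683). It lay above 0, opposite to 14 of the 15 mitochondrial genes. In Tcn2-/- IMQ against control, 74 of 79 were above 0, against 51% of all genes, with a median of 0.25, and 2 had an unadjusted p below 0.05, against 12.8% of all genes.

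The machinery that copies, transcribes and processes mitochondrial DNA was represented by 35 tested genes, and 0 were called in any comparison (edgeR). Of all genes tested, 0.0276% to 1.31% were called in these comparisons. In Tcn2-/- IMQ against IMQ, 30 of the 35 lay above 0, against 50.8% of all genes, with a median of 0.13, and 2 had an unadjusted p below 0.05, a smaller share than the 11.8% of all genes. They were Ppargc1a, a coactivator that promotes mitochondrial gene programmes (0.94 ± 0.33 SE, adjusted p = 0.292), and Mterf1a, a mitochondrial transcription termination factor (0.78 ± 0.32, adjusted p = 0.372). Of 77 mitochondrial ribosomal protein genes, 0 were called in any comparison, against 0.0276% to 1.31% of all genes. All 77 lay above 0 for Tcn2-/- IMQ against IMQ, against 50.8% of all genes, with a median of 0.30, and 3 had an unadjusted p below 0.05, a smaller share than the 11.8% of all genes. For IMQ against control, 63 of these 77 lay below 0, against 50.4% of all genes, with a median of −0.19, and 1 had an unadjusted p below 0.05, against 15.6% of all genes. In Tcn2-/- IMQ against control, 62 of 77 were above 0, against 51% of all genes, with a median of 0.14, and 0 had an unadjusted p below 0.05, against 12.8% of all genes. Summed CPM of the 77 was 3166 in Tcn2-/- IMQ replicate 2 and 2954 in control replicate 1, against at most 2410.5 elsewhere. For the 35 genes it was 1398 and 1265, against at most 1196. The nuclear lists were not refitted with libraries left out, so the part of these libraries in the counts above and below 0 was not tested.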

How the data were processed

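The authors deposited 1 table of whole-number counts per gene, not normalized, for 12 libraries. The build was GRCm39, per the submitters' processing notes, and per the labels' protocols RNA was captured with oligo(dT). No aligner, counting program or strand setting is given in the sources used here. Groups and replicate numbers came from the titles.

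Counts were fitted in R 4.3.3 with edgeR 4.0.16 (filterByExpr, TMM factors, quasi-likelihood test, 2-sided) with a mean per group over all 12 libraries. The 18147 genes tested had a common biological coefficient of variation of 0.463. Benjamini-Hochberg adjustment ran over all of them, and a gene was called at an adjusted p below 0.05. The fit was tested on simulated counts. DESeq2 1.42.0 and limma 3.58.1 (voom with quality weights) were alternatives. Ratios used exact permutation in scipy 1.17.1. Shares and levels per length use raw counts and the row's own length.

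All 15 mitochondrial genes were to be named, with Tcn2, the 2 nuclear copies with most counts (Gm10925 and Gm28661), and from each nuclear list up to 4 called genes or else the 2 with the smallest p. Gm28438 and Gm28437 were named after their values were seen. Not every gene so picked is reported. Members and lists were chosen with earlier results of these data known. Adding the counts of the chromosome 1 copies to their mitochondrial genes was chosen after seeing the data. A sequence window was 100 bases.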

Additional observations from a re-analysis of the deposited data

Results flagged for a closer look

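Of 40 sets of values tested, each a member or ratio within a group of 4 or 5 libraries, 4 had 1 library far from the others. Chance gives about 1 in 20 groups. Tcn2-/- IMQ replicate 2 had 495 CPM of mt-Atp6, against 85.8 to 145 CPM in the other libraries of that group. IMQ replicate 2 had 242 CPM of mt-Atp6, where the other IMQ libraries had 118 to 144 CPM. IMQ replicate 3 had 215 CPM of mt-Co3, where the other IMQ libraries had 71.3 to 112 CPM. IMQ replicate 4 had 38.1 mt-Nd6 counts per 1000 counts of the 12 other mRNAs, where the other IMQ libraries had 29.6 to 32.0. mt-Atp6 and mt-Co3 are among the genes whose sequence is nearly all shared with chromosome 1. The chromosome 1 copy of mt-Atp6 held 46.6% of the summed counts in Tcn2-/- IMQ replicate 2 and 21.1% in IMQ replicate 2, and that of mt-Co3 held 33.1% in IMQ replicate 3.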

How the results depend on the processing

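No mitochondrial gene was called in any comparison under any alternative run, with a lowest adjusted p of 0.120. For IMQ against control, the median log2 change was 0.019 with limma voom, 0.016 without control replicate 1 and Tcn2-/- IMQ replicate 2 together, and −0.98 to 0.017 when each library was left out in turn. For Tcn2-/- IMQ against control it was −0.50 to 0.44 over the libraries left out. For Tcn2-/- IMQ against IMQ it was 0.031 with limma voom. The cause of these shifts was not tested. Single genes changed sign in IMQ against control. mt-Nd3 was at 1.08 with voom, 0.91 without both libraries and −1.67 to 0.91 with each left out. mt-Atp6 was at 0.34, 0.36 and −1.28 to 0.36 under the same settings. mt-Rnr1 was at 0.019, 0.016 and −0.98 to 0.017 under the same settings. mt-Rnr2 was at 0.56, 0.67 and −0.54 to 0.67, and at 0.18 with the muscle score. For Tcn2-/- IMQ against IMQ, mt-Nd3 was at 0.71 with the copies added and −0.90 to 0.088 with each library left out. For Tcn2-/- IMQ against control, mt-Nd3 was at 0.013 without both libraries. With each library left out it was −2.06 to 0.56, mt-Co2 was −1.44 to 0.13 and mt-Rnr2 was −0.073 to 1.13.

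A setting left out mt-Atp8, mt-Atp6, mt-Nd4l and mt-Nd4, which overlap a neighbour. It kept mt-Nd5, which overlaps mt-Nd6 by 14 bases on the opposite strand. The mt-Nd6 difference for Tcn2-/- IMQ against control was −0.030 on the log2 scale and −0.033 counts per 1000 without those 4 genes. With each library left out it was −5.47 to 3.596 for that comparison, −3.16 to 5.32 for Tcn2-/- IMQ against IMQ and −5.06 to 1.15 for IMQ against control. The mt-Rnr2 difference for Tcn2-/- IMQ against IMQ was −0.22 to 0.0052 counts per 100.

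With the replicate number as a block, 0 genes were called and the medians were −0.54 for IMQ against control, 0.39 for Tcn2-/- IMQ against IMQ and −0.11 for Tcn2-/- IMQ against control. mt-Rnr2 was at 0.16 for IMQ against control under the block. After the group means were taken out, same-numbered libraries correlated at −0.53 to 0.42. Libraries with different numbers were not correlated, so these values cannot show whether the numbers pair them. With sex as a covariate the medians were −0.82, 0.28 and −0.41 in the same order. Depth limits mt-Atp8, with 3 to 33 counts per library.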

Other observations

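mt-Nd2, a complex I subunit, was singled out after its values were seen. Its share of the mitochondrial mRNA counts was 5.44%, 6.30%, 4.997% and 5.58% in the Tcn2-/- IMQ libraries, against 6.56%, 6.42% and 7.16% in the controls. These groups did not overlap, no test was made, and the other 12 mRNAs overlapped in this comparison. Such a share has no value over all genes to set beside it. By CPM the groups overlapped for mt-Nd2, where 5.91% of all genes tested were lower without overlap. Its log2 change was −0.33 ± 0.45 (SE; adjusted p = 0.837, edgeR). The IMQ libraries, at 5.58%, 6.07%, 6.79%, 7.20% and 6.69%, overlapped both. For IMQ against control, mt-Atp8 was the 1 gene of 13 whose share did not overlap, higher in IMQ and resting on 7 to 29 counts per library. By CPM mt-Atp8 overlapped there, where 6.79% of all genes tested were higher without overlap. For Tcn2-/- IMQ against IMQ the shares of all 13 overlapped.

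Markers of other cell types also differed between libraries, and their part in the mitochondrial levels was not tested. The 5 erythrocyte markers summed to 42.3 to 153 CPM in Tcn2-/- IMQ, 199.5 to 2820 CPM in IMQ and 50.5 to 218 CPM in control skin. The 5 brown adipocyte markers summed to 49.9 to 694 CPM in Tcn2-/- IMQ, 39.9 to 533 CPM in IMQ and 399 to 646 CPM in control skin. Cox7a1 and Cox8b of this list are also among the 79 nuclear subunits, so the sum alone does not show brown fat. The 8 neutrophil markers summed to 274 to 1283 CPM in Tcn2-/- IMQ, 2432 to 11608 CPM in IMQ and 21.8 to 91.0 CPM in control skin. Among them S100a8 and S100a9 had IMQ means of 2274 and 2386 CPM, against 28.2 for Cxcr2 and 30.7 for Retnlg. The 7 chromosome 1 copies together held 0.774 to 1.45 counts per 100 mitochondrial counts in Tcn2-/- IMQ, 0.905 to 1.08 in IMQ and 0.883 to 1.06 in control skin.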
